A study of Amphimedon queenslandica and Mnemiopsis leidyi and Nematostella vectensis with 36 samples.

Results

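The DNA binding domain (DBD) of NRF, a transcription factor of the marine sponge Amphimedon queenslandica, was incubated in vitro with genomic DNA of the sponge in amplified and in native form. All peaks of both experiments are described here, 501 on amplified DNA and 335 on native DNA. These 836 peaks are part of the 120443 peaks in the 16 peak lists of the series. A peak was called shared when it overlapped a peak on the other DNA by at least 1 bp on the same contig, and each peak overlapped at most 1 peak of the other list. This gave 659 regions, of which 177 were shared, 324 were held on amplified DNA only and 158 were held on native DNA only.

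DNA affinity purification sequencing, DAP-seq, mixes genomic DNA with a protein that was translated in vitro and carries the HaloTag, a tag by which it can be captured, and the retained DNA is sequenced. Native genomic DNA carries its cytosine methylation. In ampDAP-seq the DNA is first copied by PCR, which leaves the methylation behind, so that the sequence is the same and the methylation is absent. Such copying also changes how often each fragment is present, so a difference between both kinds of DNA is not a measure of methylation alone. The labels do not spell out the name NRF. In mammals it stands, among other proteins, for nuclear respiratory factor 1, an activator of genes of mitochondrial respiration that binds a GC-rich sequence with CpG sites and is known to bind poorly where these are methylated. A DBD is the stretch of a factor that contacts the DNA, separated from the regions by which the full protein pairs with itself or with others.

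The amplified group was 1 library in which larval DNA, sheared to a mean of 200 bp and ligated to adapters, passed through 11 cycles of PCR before it met the NRF DBD. The native group was 1 library made alike without those cycles. Both libraries used DNA of swimming larvae at 0 h, of individuals from Heron Island, the protein was the NRF DBD fused to the HaloTag, and the retained DNA was amplified for 20 cycles. Purified DNA was used, so the chromatin of the larva played no part. There were no replicates of any construct on either DNA, and peaks of 1 library are not replicates of a condition, so no difference between both kinds of DNA could be tested. Shares are given with 95% Wilson intervals and medians with 95% order-statistic intervals, and both cover counting error only. Usable fragments numbered 2664847 in the amplified and 2498007 in the native NRF DBD library, within the range of 2161903 to 3168602 over the 16 libraries. The empty HaloTag controls had 2865511 usable fragments on amplified and 2626764 on native DNA, and each control served all lists of its kind of DNA. Positions count from 1 on the numbered contigs of the authors' lists, with a genome build that no source used here gives, and no gene annotation was attached to them.

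The amplified list, with 501 peaks, was longer than the native list, with 335, a log2 ratio of 0.58 (0.38 to 0.78). Of the amplified peaks, 35.3% (31.3 to 39.6%) had a partner on native DNA, against 52.4% over the peaks of the 7 other constructs. Of the native peaks, 52.8% (47.5 to 58.1%) had a partner on amplified DNA, and the figure over the 7 other constructs was also 52.8%. These pooled figures are set by the constructs with the longest lists. Among the 8 constructs the amplified share ran from 26.7% for the NRF full length protein to 86.1% for the EGR DBD. The native share ran from 25.4% for the GLI DBD to 77.4% for the SP41 full length protein. The amplified share of the NRF DBD moved with the peaks that were counted. At a fold enrichment of at least 5 it was 54.9%, against 35.3% in the deposited list, and the native share was 48.8%. With both lists cut to equal length the amplified share was 51.9%. Since each peak had at most 1 partner, both shares are then equal by construction. The order of 8 constructs cannot give an exact permutation p below 0.125 for the place of 1 of them, so these ranks were not read further.

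The surplus of amplified peaks shrank when weak peaks were left out, and the interval of the log2 ratio then held 0. The fold enrichment of a peak is the authors' ratio of fragments at its summit to the local background taken from the empty HaloTag control. Its background differs between both kinds of DNA, so a given fold enrichment is not the same bar on each, and values set side by side are a description. At a −log10 q of at least 5, 354 amplified and 319 native peaks remained, a log2 ratio of 0.15 (-0.07 to 0.37). At a fold enrichment of at least 5 the numbers were 255 amplified and 287 native, a log2 ratio of -0.17 (-0.42 to 0.08). The median fold enrichment over all peaks was 5.15 (4.85 to 5.63) on amplified and 8.19 (7.45 to 8.47) on native DNA. The pileup, the number of fragments that cover the summit, had a median of 30 on amplified and 45 on native DNA.

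The chance of a partner followed the strength of a peak in both lists. With each list cut into 4 equal groups by the authors' q-value, 0.794% of the weakest amplified peaks had a native partner, then 20.0%, 50.4% and 70.4% in the strongest group. On native DNA 19.0% of the weakest peaks had an amplified partner, then 32.1%, 67.5% and 92.9%. Among the 50 strongest peaks, 36 of the amplified and 49 of the native ones were shared. All of the 25 strongest native peaks had a partner, and 0 of 25 without one allows a share of up to 12%. Of the 25 strongest amplified peaks by q-value, 4 had no native partner. With both lists cut at a fold enrichment of at least 5, 115 amplified and 147 native peaks had no partner. Which DNA held more of the strong unpaired peaks thus depended on the measure of strength.

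The division into classes did not hinge on marginal contacts. The smallest overlap of a shared pair was 92 bp, on contig 13437 at 210539 to 210691 on amplified and 210475 to 210630 on native DNA, and the next were 108, 121, 125 and 131 bp. On the other side, the closest amplified-only peak lay 560 bp from a native peak, on contig 2667 at 282 to 428. The closest native-only peak lay 422 bp from an amplified peak, on contig 12646 at 25439 to 25754. Only 4 amplified-only and 4 native-only peaks lay within 1000 bp of a peak on the other DNA. For 248 of 324 amplified-only peaks (76.5%) and 69 of 158 native-only peaks (43.7%) the contig held no peak on the other DNA at all.

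The shared regions held the strongest native peaks. The highest-ranked native peak was on contig 13273 at 8437 to 8724, with a pileup of 507 in its amplified partner at 8472 to 8679 and 452 in the native peak. Its fold enrichment was 5.82 on amplified and 12.4 on native DNA, with a local background of 86.2 fragments on amplified and 35.6 on native DNA. The second, on contig 13405, spanned 87222 to 87438 on amplified and 87127 to 87437 on native DNA, with a fold enrichment of 11.1 on amplified and 20.2 on native DNA. The third and the fourth lay close together on contig 12812. One of them spanned 38485 to 38897 on amplified and 38387 to 38910 on native DNA with a fold enrichment of 11.6 on amplified and 27.7 on native DNA, and the other 40279 to 40572 on amplified and 40278 to 40585 on native DNA with 11.5 on amplified and 18.2 on native DNA. The fifth, on contig 12646 at 27461 to 27727 on amplified and 27349 to 27735 on native DNA, had a fold enrichment of 8.86 on amplified and 28.8 on native DNA. In each of these 5 regions the fold enrichment was lower on amplified DNA.

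The strongest amplified peak went the other way. It lay on contig 13038, at 59947 to 60218 on amplified and 59952 to 60227 on native DNA, where it ranked 18th. Its pileup was 194 on amplified and 126 on native DNA, and its fold enrichment 34.2 on amplified and 16.9 on native DNA. The third amplified peak by rank, on contig 13384 at 69426 to 69693, had a fold enrichment of 21.5 on amplified DNA and 19.6 in its native partner at 69410 to 69704. The second was the region of contig 13273 given above, and the remaining members of the 5 strongest shared amplified peaks were the pair of regions on contig 12812.

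Across the 177 shared pairs the fold enrichment was lower on amplified DNA in 141 (79.7%), against 43.1% over the pairs of the 7 other constructs. That pooled figure is set by the constructs with the longest lists, and the EGR DBD was close to the NRF DBD with 73.4%. The median was 7.34 (6.79 to 7.72) on amplified and 10.5 (9.43 to 11.8) on native DNA. The log2 ratio within pairs had a median of -0.53 (-0.64 to -0.40) and ran from -1.90 to 1.27. Among the 8 constructs the median ran from this value, through -0.43 for the EGR DBD, to 0.82 for the NRF full length protein. Both components of the fold enrichment differed. The summit pileup had a median of 52 on amplified and 59 on native DNA, with a median log2 ratio of -0.17 within pairs, or -0.27 per usable fragment. The local background was 6.10 fragments on amplified and 5.52 on native DNA, with a median log2 ratio of 0.26, and it was higher on amplified DNA in 127 pairs and lower in 50. The background comes from the empty HaloTag controls, scaled to the depth of the DBD library where that was the smaller, as on both kinds of DNA. Differences between these 2 controls and in depth are therefore both part of the ratio. The genome-wide level of this background was 2.22 fragments on amplified and 2.07 on native DNA.

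The highest ratio, a log2 value of 1.27, was on contig 12646 at 22515 to 22759 on amplified and 22512 to 22711 on native DNA, with a fold enrichment of 28.2 on amplified and 11.7 on native DNA. The next was on contig 13367 at 2439 to 2711 on amplified DNA, with a fold enrichment of 16.6 on amplified and 7.71 on native DNA. The third was on contig 12971 at 39408 to 39605, with 11.0 on amplified and 5.39 on native DNA. There the pileup was 50 on amplified and 53 on native DNA, so the higher ratio came with a lower background on amplified DNA, 3.65 fragments against 9.02 on native DNA. The lowest ratio, a log2 value of -1.90, was on contig 13436 at 161808 to 161977 on amplified DNA, with a fold enrichment of 3.28 on amplified and 12.3 on native DNA. On contig 13284, at 8987 to 9427, it was 5.99 on amplified and 20.6 on native DNA, and the third lowest was the region of contig 12646 at 27461. Contig 12646 thus held both the highest and one of the 3 lowest ratios.

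**Figure D1:**
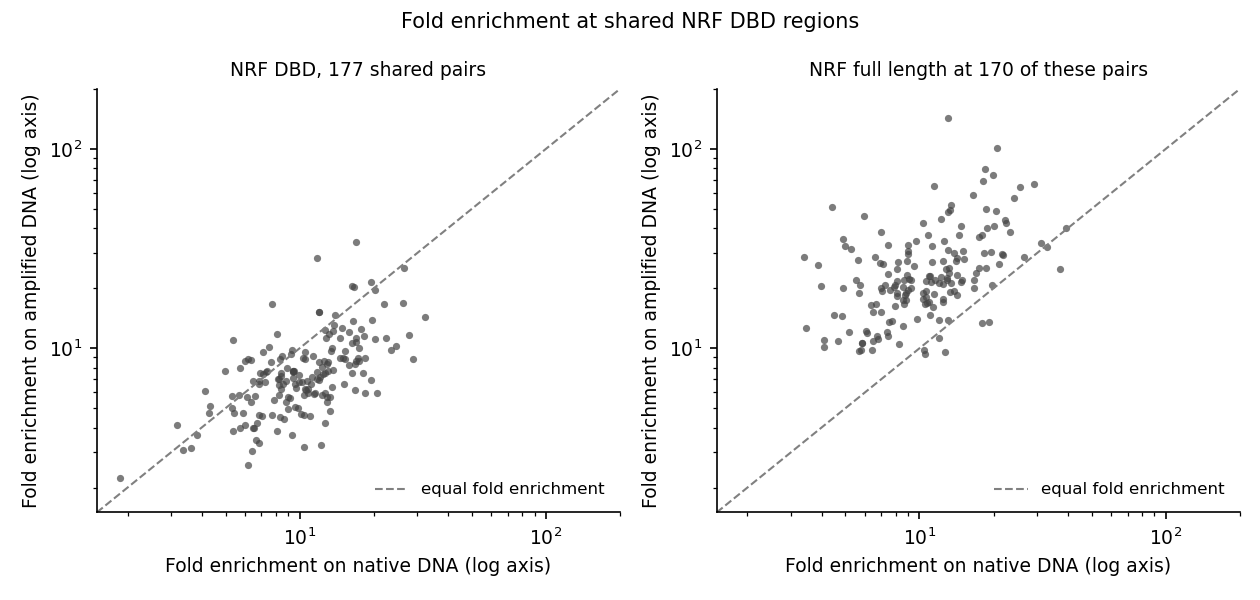
Fold enrichment on amplified DNA (vertical, log axis) against native DNA (horizontal, log axis), with 1 point for each region and a dashed line where both are equal. In the left panel, the NRF DBD at 177 shared pairs, 141 points lie below the line. In the right panel, the NRF full length protein at the 170 of these pairs held in both of its lists, 162 points lie above it.

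The full length NRF protein was assayed on the same kinds of DNA, which gave 1439 amplified and 769 native peaks. These lists were not used to class the DBD peaks, but they share the empty HaloTag control of each DNA with them. Nearly every shared DBD region was held by the full protein as well. Of 177, 176 (99.4%) lay in a full length peak on amplified DNA, 171 (96.6%) in one on native DNA and 170 (96.0%) in both. None lay in neither, and 0 of 177 allows a share of up to 1.69%. The summits of the DBD and the full length protein lay a median of 7 bp apart on amplified DNA (333 peaks) and 6 bp apart on native DNA (304 peaks).

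The classes held on 1 DNA differed most in how often the full protein held them on native DNA. Of the 324 amplified-only regions, 157 (48.5%, 43.1 to 53.9%) lay in a full length peak on amplified DNA and 16 (4.94%) in one on native DNA. Of the 158 native-only regions, 132 (83.5%, 77.0 to 88.5%) lay in a full length peak on amplified DNA and 133 (84.2%) in one on native DNA, and 120 (75.9%) in both. Regions that the DBD list gave on native DNA only were therefore mostly present in the list of the full protein on amplified DNA. Regions that it gave on amplified DNA only were rarely present in its list on native DNA. The contrast on native DNA remained when both DBD lists were cut to equal length, with 7.45% of amplified-only and 83.9% of native-only regions. The contrast on amplified DNA did not, with 83.2% in both classes, and at a fold enrichment of at least 5 it was 96.5% of amplified-only and 94.6% of native-only regions. The full length lists differ in size, and the one on amplified DNA is the longer.

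The other factors with both constructs gave lower shares than NRF, except for amplified-only peaks in a full length peak on native DNA. There the NRF share, 4.94%, was the lowest. Of amplified-only DBD peaks, 3.35% of YY1 and 35.1% of SP41 lay in a full length peak of the same factor on amplified DNA, and 7.08% and 12.6% in one on native DNA. Of native-only DBD peaks, 0.583% of YY1 and 24.0% of SP41 lay in a full length peak on amplified DNA, and 9.71% and 22.1% in one on native DNA. These lists differ from those of NRF in length, so the shares are given as a background.

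**Figure D2:**
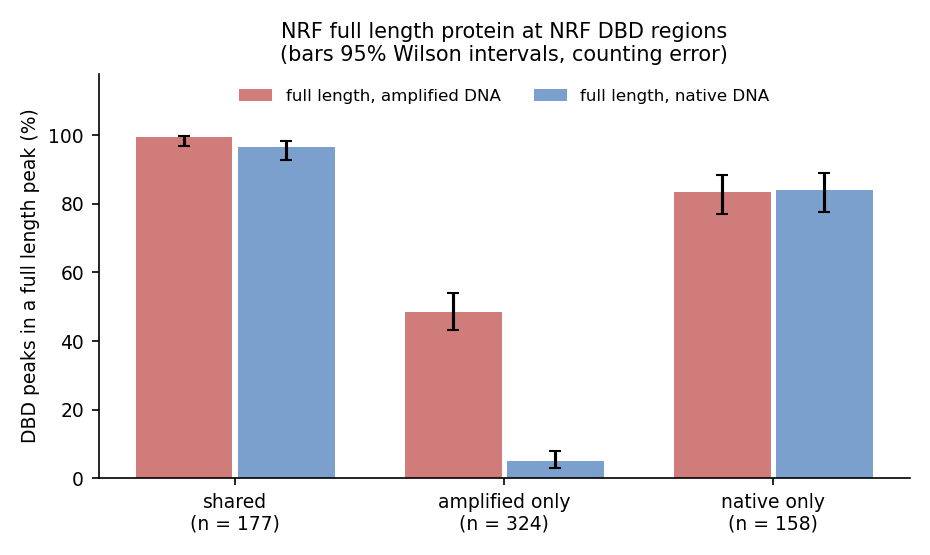
Percentage of NRF DBD regions of each class (shared, amplified only, native only) that lie in a peak of the NRF full length protein on amplified DNA (left bar) and on native DNA (right bar), with 95% Wilson intervals. The amplified-only class is the one with a low share on native DNA, 4.94%, while the native-only class has 83.5% on amplified and 84.2% on native DNA.

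At the 170 pairs held in all 4 NRF lists the proteins moved in opposite directions. The DBD had a median log2 ratio of amplified over native fold enrichment of -0.54, with 33 pairs above 0 and 137 below. The full length protein had a median of 1.06 (0.95 to 1.22), with 162 pairs above 0 and 8 below. Its median fold enrichment there was 21.99 on amplified and 10.6 on native DNA. The ratio of the full length protein exceeded that of the DBD in 170 of 170 pairs, by a median of 1.56 and by at least 0.70. Since both ratios are set over the same control libraries, the background enters both. At the full length peaks it had a median log2 ratio of 0.10, and at the DBD peaks one of 0.26. The summit pileup itself had a median log2 ratio of 1.33 for the full length protein, above 0 in 170 of 170 pairs, and of -0.17 for the DBD, above 0 in 57. These pileups are not divided by background, but they are also not corrected for library depth or for the random down-sampling of the larger library. The part of background, depth and down-sampling in the difference between the proteins was not tested. With 1 library for each protein and DNA the difference itself could not be tested.

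The region of contig 13038 shows this difference. There the full length protein had a fold enrichment of 143 on amplified and 13.0 on native DNA, against 34.2 and 16.9 for the DBD on amplified and native DNA. On contig 13367 at 2439 the full length protein had 51.1 on amplified and 4.43 on native DNA. At the lowest DBD ratio, on contig 13436, it had 9.81 on amplified and 10.4 on native DNA.

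The native-only regions showed a higher full length fold enrichment on amplified DNA as well. At the 120 of them held in both full length lists the median was 10.2 on amplified and 7.24 on native DNA, a median log2 ratio of 0.50, above 0 in 98 and below 0 in 22. At the 11 amplified-only regions held in both the median log2 ratio was 1.89, above 0 in all 11. From the side of the full protein, 333 of its 1439 amplified peaks (23.1%) and 304 of its 769 native peaks (39.5%) lay in a DBD peak on the same DNA. Its 100 strongest peaks on amplified DNA and its 100 strongest on native DNA all did so.

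The amplified-only regions were of mixed strength. Their median fold enrichment was 4.26 (4.01 to 4.54), with a median pileup of 23. The 157 in a full length peak on amplified DNA had a median fold enrichment of 6.18 and a pileup of 32, and the 167 others had 3.47 and 17. No fold enrichment among the 167 passed 5.87. The local background was alike, with a median of 4.01 fragments in those held by the full protein and 4.35 in the others. The share of amplified DBD peaks in a full length peak on amplified DNA was 12.7% in the weakest of the 4 groups by q-value, then 56%, 97.6% and 100% in the strongest.

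The strongest amplified-only peaks stood at places the full protein also held on amplified DNA. The first, on contig 13331 at 30879 to 31180, ranked 4th in its list with a pileup of 141 and a fold enrichment of 28.3, and the full length protein had 76.0 there on amplified DNA. The second, on contig 13373 at 64502 to 64789, ranked 5th with a fold enrichment of 25.1. The full length protein had 111 there on amplified DNA, its 2nd strongest peak, and no other factor had a peak. The third lay at the start of contig 2190, at 7 to 203, with a fold enrichment of 14.0. The others were on contig 13522 at 1621635 to 1621860 (13.1), on contig 12846 at 23748 to 24025 (17.6) and on contig 11641 at 475 to 629 (6.64). All 6 lay in a full length peak on amplified DNA and none in a full length peak on native DNA.

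The native-only regions had a median fold enrichment of 6.32 (5.83 to 6.86) and a median pileup of 32, against 10.5 and 59 in the shared peaks on native DNA. The 133 in a full length peak on native DNA had a median of 6.70 and the 25 others one of 4.52. The strongest, on contig 13375 at 113564 to 113817, ranked 32nd in its list with a pileup of 109 and a fold enrichment of 12.3, and the full length protein had 11.3 there on amplified and 8.35 on native DNA. The next were on contig 13504 at 302716 to 302935 (fold enrichment 11.1), contig 13521 at 981877 to 982153 (11.3) and contig 13500 at 212878 to 213103 (11.5). The last of the 6 strongest were on contig 13519 at 941019 to 941258 (11.1) and contig 13349 at 77300 to 77524 (9.23). All 6 lay in a full length peak on both kinds of DNA, in contrast to the 6 strongest amplified-only peaks, and 5 of the 6 held no peak of another factor.

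Peaks were narrower on amplified DNA. The median width was 174 bp (170 to 180) over all amplified and 210 bp (205 to 214) over all native peaks. The shortest peak of each list, 139 bp on amplified and 138 bp on native DNA, equalled the fragment length that the caller reported for that library. Within shared pairs the median was 193 bp on amplified and 236 bp on native DNA. The amplified peak was narrower in 150 of 177 pairs, by a median of 35 bp, and wider in 27, whereas 53.6% of pairs of the 7 other constructs were narrower on amplified DNA. Single constructs came close to the NRF DBD, with 80.8% for the EGR DBD, 74.4% for the YY1 full length protein and 67.8% for the GLI DBD. The amplified peak lay wholly inside the native one in 108 pairs and the native one wholly inside the amplified one in 12. In the same pairs the fold enrichment was also mostly lower on amplified DNA, and its part in the width was not tested.

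Peaks held on 1 DNA were shorter and closer to each other in width. The median was 167 bp (162 to 173) in amplified-only and 177 bp (166 to 189) in native-only peaks, with intervals that overlap. The widest amplified peak, 550 bp on contig 8225 at 1474 to 2023, and the widest native peak, 556 bp on contig 13273 at 4390 to 4945, were both shared. The summit lay near the middle of the peak, at a median of 49.7% of the width on amplified and 49.3% on native DNA.

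**Figure D3:**
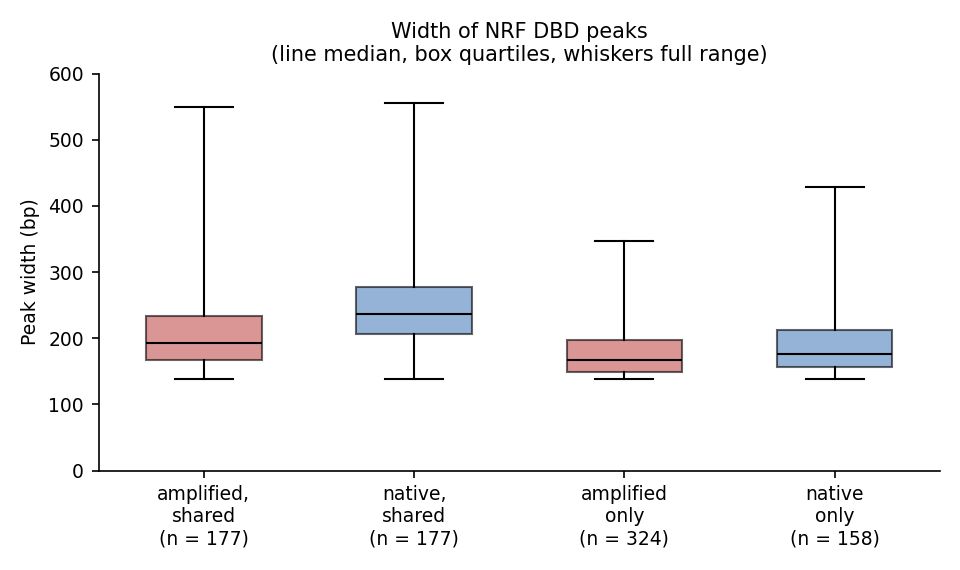
Width of NRF DBD peaks in bp by class, with the line at the median, the box at the quartiles and the whiskers over the full range. Shared peaks have a median of 193 bp on amplified and 236 bp on native DNA, and peaks held on 1 DNA have 167 bp on amplified and 177 bp on native DNA.

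The summits of shared pairs fell nearly on the same base. The median distance was 9 bp (quartiles 4 and 19 bp), with 98 pairs (55.4%) within 10 bp, 135 (76.3%) within 20 bp and 154 (87.0%) within 50 bp. The signed offset, amplified minus native, had a median of -2 bp (-4 to 0), with 96 pairs below 0, 73 above and 8 at 0. The median distances of the 8 constructs ran from 6 to 19 bp. The 23 pairs with summits over 50 bp apart had a larger median width, 294 bp (169 to 335) on amplified and 329 bp (209 to 381) on native DNA. In the other 154 it was 193 bp (180 to 202) on amplified and 231.5 bp (225 to 239) on native DNA. The intervals overlap on both kinds of DNA. Of these 23 pairs, 91.3% lay in a full length peak on both kinds of DNA, against 96.8% of the others. The largest offset, 197 bp, was on contig 13273 at 6185 to 6503 on amplified and 6260 to 6631 on native DNA, with a fold enrichment of 4.82 on amplified and 13.3 on native DNA.

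**Figure D4:**
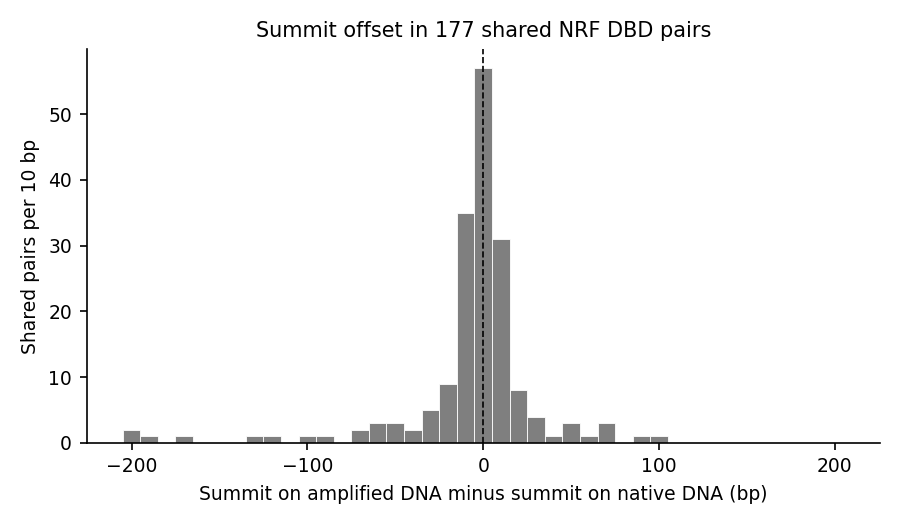
Number of the 177 shared NRF DBD pairs by the position of the summit on amplified DNA minus that on native DNA, in bins of 10 bp, with a dashed line at 0. Most pairs gather round 0, with 154 within 50 bp, and the longest offset is -197 bp.

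Peaks were spread thinly over the contigs, with a few dense stretches. The 501 amplified peaks fell on 352 contigs, 265 of them with a single peak, and the 335 native peaks on 205 contigs, 136 with a single peak. Of the 414 contigs with any peak, 143 had peaks on both kinds of DNA, 209 on amplified DNA only and 62 on native DNA only. The most peaks on a contig were 11 on amplified DNA, on contig 13522, and 10 on native DNA, on contig 13520. Contig 13522 had 2 native peaks and 1 shared pair, and contig 13520 had 6 amplified peaks and 5 shared pairs. Contig lengths were not at hand, and the furthest peak end in any of the 16 lists, the least length a contig can have, was 1888443 bp on contig 13522 and 1083818 bp on contig 13520. That least length had a median of 135880 bp for amplified-only, 240442 bp for native-only and 134884 bp for shared peaks.

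Neighbouring summits on a contig lay a median of 39736 bp (22943 to 64118) apart on amplified DNA, over 149 neighbours, and 27377 bp (14965 to 48809) on native DNA, over 130. The order of the medians changed without the weak peaks, but the intervals overlapped in every setting, so no direction is read from them. In lists of equal length the median was 17473.5 bp (11255 to 43682) on amplified and 27377 bp (14965 to 48809) on native DNA. At a fold enrichment of at least 5 it was 13516 bp (2518 to 20289) on amplified and 26504 bp (11237 to 53361) on native DNA. In the deposited lists 33 neighbours (22.1%) on amplified and 37 (28.5%) on native DNA lay under 5000 bp apart, and 8 in each list lay under 1000 bp. The closest amplified neighbours were 490 bp apart on contig 13444, at 1375 to 1515 and 1865 to 2014, both amplified only. The closest native neighbours were 634 bp apart on contig 11921, at 3785 to 4041 and 4436 to 4707, both shared.

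Runs of at least 3 peaks with less than 5000 bp between neighbouring summits numbered 4 on amplified DNA, with 20 peaks, and 6 on native DNA, with 27 peaks. All 4 amplified runs lay where a native run also lay. Contig 11921 held 7 amplified peaks at 1738 to 10361 and 6 native peaks at 1734 to 10381, and 6 were shared. Their fold enrichment ran from 8.03 to 19.6 on amplified and from 12.03 to 24.7 on native DNA. Contig 12646 held 5 amplified peaks at 20741 to 27727 and 6 native peaks at 20649 to 27735, with 5 shared. Contig 12812 held 3 on each DNA, all shared, and contig 13273 held 5 on each, with 4 shared. Every peak of the runs on these 4 contigs lay in a full length peak on the same DNA except 1 native peak of contig 13273. The other native runs were on contig 12243, with 3 peaks of which 2 were shared, and on contig 13405, with 4 of which 2 were shared. All 3 peaks of contig 12243 and 3 of the 4 of contig 13405 lay in a full length peak on native DNA.

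Peaks of the other 4 factors, YY1, EGR, GLI and SP41, overlapped many NRF DBD regions. These factors belong to zinc finger families. YY1 activates or represses genes, EGR proteins are switched on early after a stimulus, GLI proteins act in Hedgehog signalling, and SP proteins bind GC-rich promoter sequence in vertebrates. Of the amplified DBD peaks, 63.9% lay in a peak of at least 1 other factor on either DNA, against 52.6% over the 7 other constructs. Of the native peaks, 66.6% did, against 56.7% over the 7 other constructs. For shared regions the partners are those of the amplified peak, except where stated. By class it was 136 of 177 shared regions (76.8%, 70.1 to 82.4%), 184 of 324 amplified-only regions (56.8%, 51.3 to 62.1%) and 87 of 158 native-only regions (55.1%, 47.3 to 62.6%). The other constructs gave 41.0% for their amplified-only and 49.7% for their native-only peaks. These constructs have far longer lists, of 60242 amplified and 59365 native peaks in all, and for YY1, EGR, GLI and SP41 the other factors include the short NRF lists, so the shares are a background and not a like for like comparison.

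Shared regions also held more factors. At least 2 other factors were present in 48.0% of shared, 21.0% of amplified-only and 22.8% of native-only regions. All 4 were present in 5 shared, 6 amplified-only and 0 native-only regions. Read through the native peak of each pair, the count of shared regions with all 4 was again 5, and through either peak it was 6. SP41 was present in 56.5% of shared, 23.1% of amplified-only and 28.5% of native-only regions. Over all NRF DBD peaks it was 34.9% on amplified and 43.3% on native DNA, and over the full length NRF peaks 31.0% on amplified and 35.8% on native DNA. Its 4 lists hold 46650 peaks, more than those of YY1 with 37893, EGR with 19191 or GLI with 13665, so the shares of different factors are not ranked. EGR was present in 27.1% of shared, 10.8% of amplified-only and 16.5% of native-only regions. YY1 differed less between the classes, with 35.0% of shared, 30.6% of amplified-only and 31.6% of native-only regions. Shared peaks were also wider and stronger. On amplified DNA their median width was 193 bp and pileup 52, against 167 bp and 23 in amplified-only peaks. Native-only peaks had a median of 177 bp and a pileup of 32. A wider peak can overlap more peaks, and the part of width and strength in the shares by class was not tested.

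GLI set the amplified-only and the native-only regions apart. It was present in 69 of 324 amplified-only (21.3%, 17.2 to 26.1%) and 11 of 158 native-only regions (6.96%, 3.93 to 12.04%), and in 26.0% of shared ones. The gap lay in the GLI peaks on amplified DNA, which covered 18.2% of amplified-only and 1.90% of native-only regions, while GLI peaks on native DNA covered 8.33% of amplified-only and 6.96% of native-only regions. Libraries of the other factors share a control with the NRF library of the same DNA, and the part of that control was not tested. Another factor on amplified DNA alone was present in 80 amplified-only and 9 native-only regions, and another factor on native DNA alone in 17 amplified-only and 23 native-only regions.

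**Figure D5:**
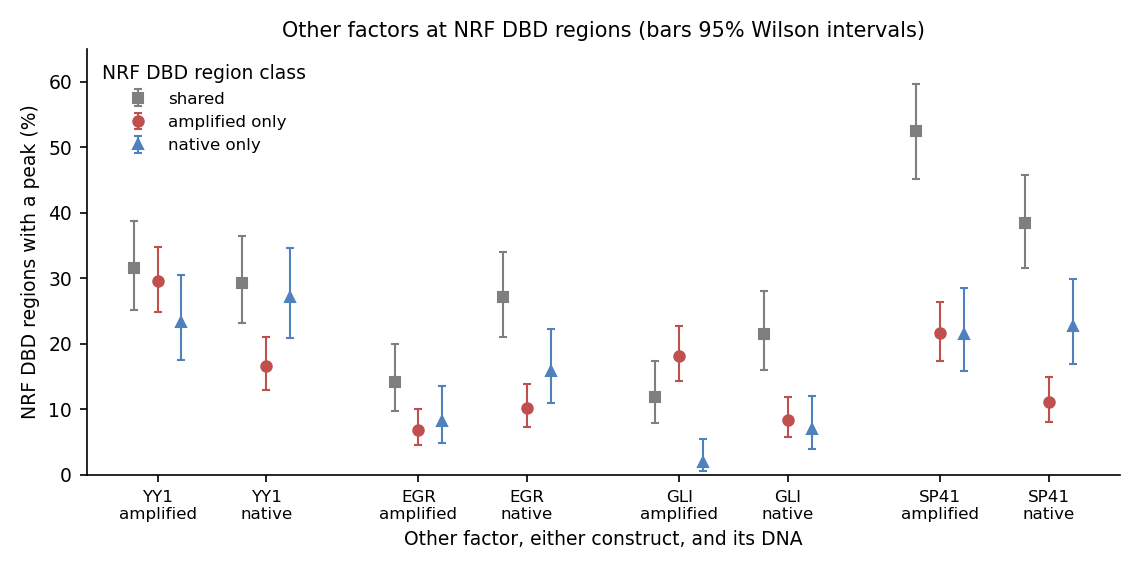
Percentage of NRF DBD regions of each class with a peak of YY1, EGR, GLI or SP41 (full length or DBD) on amplified or on native DNA, with 95% Wilson intervals. In shared regions SP41 is at 52.5% for its amplified and 38.4% for its native lists, and GLI on amplified DNA is at 18.2% in amplified-only and 1.90% in native-only regions.

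Amplified-only regions outside and inside the full length peaks on amplified DNA were alike for YY1, with 30.5% outside and 30.6% inside, and for SP41, with 22.2% outside and 24.2% inside. At least 1 other factor was present in 59.3% of those outside and 54.1% of those inside. Another factor on amplified DNA alone was present in 55 of the 167 outside (32.9%) and in 25 of the 157 inside (15.9%). GLI was present in 26.3% of those outside and 15.9% of those inside, and EGR in 5.99% of those outside and 15.9% of those inside. The regions outside were also weaker, as given above, and the part of strength in these shares was not tested.

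The 5 shared regions with all 4 other factors on their amplified peak were on contig 8363 at 2094 to 2457, contig 13069 at 37434 to 37664, contig 13427 at 202177 to 202383, contig 13447 at 42748 to 42933 and contig 13424 at 73814 to 73982, positions on amplified DNA. Their fold enrichment on amplified DNA ran from 3.83 on contig 13424 to 8.86 on contig 13069. On native DNA the narrower peak of contig 8363, at 2288 to 2437, did not hold all 4, while that of contig 13157 at 54128 to 54424, with a fold enrichment of 13.4, did. The 6 amplified-only regions were on contig 13467 at 274735 to 274907, contig 13432 at 198812 to 198959, contig 9691 at 3766 to 3906, contig 13520 at 758902 to 759145, contig 13051 at 48078 to 48265 and contig 13226 at 51720 to 51868. They were weak, with a fold enrichment between 2.39 on contig 13226 and 4.62 on contig 13432, and 3 of them lay in a full length NRF peak on amplified DNA.

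Summits of other factors lay further from those of the DBD than did summits of the full length protein. The median distance was 24 bp for the YY1 full length peaks on amplified DNA and 51 bp for the YY1 DBD peaks on native DNA, which were the lowest and highest of the 12 lists, against 7 and 6 bp for the full length NRF protein on amplified and native DNA. GLI DBD summits on amplified DNA lay within 20 bp in 33 of 80 cases, and YY1 DBD summits on native DNA in 19 of 89. The NRF full length summits on amplified DNA did so in 286 of 333 cases.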

How the data were processed

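Per the labels' protocols, larval DNA fragments were bound to HaloTag fusions translated in vitro. The submitters' processing notes list MACS2, CASAVA 1.8.2, fastp, Bowtie, Bowtie2 and BS-Seeker2 for the series, and no source used here tells which aligner served these libraries. The authors called peaks for each library with MACS2 2.1.2, per the file headers, against the empty HaloTag library of the same DNA, at a q cutoff of 0.05, with at most 1 duplicate and an effective genome size of 166679601 bp. They scaled the larger library of each pair down at random, so weak peaks near the cutoff can change between runs. Per the file headers, the deposited pileup is a signal of coverage in fragments and the deposited p-values and q-values are −log10 values. The deposited fold enrichment was read as a ratio with a pseudocount of 1 fragment. Both YY1 lists on native DNA carry another run letter in their headers, of unknown meaning.

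The local background was derived as (pileup + 1) divided by fold enrichment, minus 1. With it, the Poisson upper tail came within 1% of the authors' deposited −log10 p in 501 of 501 amplified and 334 of 334 native peaks with a finite value. Overlap required at least 1 bp. Overlap counting was tested on simulated peaks and equalled bedtools 2.31.1 in 30 of 30 comparisons of lists. Where several full length peaks met a DBD peak, the one of highest fold enrichment was used. Shares carry Wilson intervals at 95%, and a share of 0 is limited by 3 counts.

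Named regions were the 5 strongest shared pairs of each list and the 6 strongest peaks held on 1 DNA by q-value. Named as well were the 3 highest and 3 lowest fold ratios, the widest peaks, the largest summit offset, the closest neighbours and the regions with all 4 other factors. Members, lists and alternatives were chosen with earlier results of these data known. Alternatives were stricter lists (−log10 q or fold enrichment of 5 or more), lists of equal length, other rules of overlap (50% of both peaks, summits within 50 bp, a gap of up to 200 bp), peaks without 3 or more other factors, and peak numbers per usable fragment. A planned description of sequence content was not run, since no genome was used here. Python 3.11.15, numpy 2.4.6, pandas 2.3.3, scipy 1.17.1 and matplotlib 3.10.9 were used.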

Additional observations from a re-analysis of the deposited data

Results flagged for a closer look

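The median fold enrichment of the NRF DBD on native DNA, 8.19, lay apart from those of the other 7 constructs, with a gap to the next of 0.63 of the whole range, against a limit of 0.526 by Dixon's criterion for 8 values. For independent values chance alone puts about 1 in 20 such groups past the limit, and 18 measures were looked at. The 8 constructs are not independent, since some are of the same factor and all lists of the same DNA share a control. The rate is therefore only a guide here. On amplified DNA it was the NRF full length protein that stood apart in the same way, with a gap of 0.63.

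The DBD and the full length protein differed in direction at the 170 pairs held in all 4 NRF lists. The median log2 ratio of amplified over native fold enrichment was -0.54 for the DBD and 1.06 for the full length protein. The difference was not tested, since each protein had 1 library on each DNA. The number of peaks with at least 5-fold enrichment also differed, again untested. The log2 ratio of amplified over native was 1.71 for the full length protein and -0.17 (-0.42 to 0.08) for the DBD. The interval of the DBD held 0, so no direction is read from it.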

How the results depend on the processing

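Over 17 results, 100 alternative values were computed. Of these, 78 stayed within the interval of the value reported, 21 moved beyond it and 1 changed sign. That was the log2 ratio of peak numbers, -0.17 (-0.42 to 0.08) at a fold enrichment of at least 5, against 0.58 over all peaks. Its interval held 0, as did that of the 0.15 (-0.07 to 0.37) at a −log10 q of at least 5. The share of amplified peaks with a native partner was 49.2% at the stricter q, 54.9% at a fold enrichment of at least 5, 51.9% in lists of equal length and 30.7% with summits within 50 bp. The share of native peaks with an amplified partner was 46.0% with summits within 50 bp. The median amplified width was 189 bp at a fold enrichment of at least 5 and 181 bp in lists of equal length, and the median native width 215 bp at that fold enrichment. Amplified-only regions lay in a full length peak on amplified DNA in 77.2% at the stricter q, 96.5% at the higher fold enrichment and 83.2% in lists of equal length. Native-only regions did so in 90.3% at the stricter q and 94.6% at the higher fold enrichment, so that amplified-only regions were below native-only ones at the stricter q but not at the higher fold enrichment or in lists of equal length. In a full length peak on native DNA lay 11.0% of amplified-only regions with summits within 50 bp, and native-only regions in 89.7% at the stricter q and 92.5% at the higher fold enrichment, so that this difference remained. Amplified-only regions held another factor in 47.0% at the higher fold enrichment. The median spacing on amplified DNA was 20978 bp at the stricter q, 13516 bp at the higher fold enrichment and 17473.5 bp in lists of equal length. On native DNA it was 28910, 26504 and 27377 bp in the same order of settings, with intervals that overlap in each. By construction these lists leave out weak peaks, which were mostly amplified ones. The median fold ratio of shared pairs stayed between -0.53 and -0.50 and the median summit distance between 8 and 10 bp under every alternative run for them. No paired analysis was possible because each group had 1 library. With 1 library on each DNA, neither the spread between libraries nor the effect of the random down-sampling on weak peaks could be measured, and the effect of methylation cannot be told apart from that of the added PCR.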
